A study of Mus musculus with 20 samples.

Results

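The comparison described here is that of 5 doxorubicin injected with 5 control male mouse kidneys, 10 of the 20 kidneys of a study of both sexes. The animals were chosen by the sex and the disease state in the sample titles. All were Balb/c, an inbred strain in which doxorubicin causes kidney disease, at an age of about 10 weeks. The control males, labelled healthy, carry the numbers M30-1, M13, M30-2, M30-5 and M12, and what they received in place of the drug is not given in the labels. The doxorubicin males, labelled diseased, are M30-3, M30-4, M7, M9 and M11, which were given 12 mg/kg doxorubicin intravenously and whose kidneys were taken on day 14. The corresponding 5 control and 5 doxorubicin females served to estimate the spread between animals and to test where the response of males differed from that of females. Total RNA of the whole kidney was labelled with biotin by the One-Cycle protocol and hybridized to 1 Affymetrix mouse array per animal. Values are log2 of the deposited intensity of a probe set, a group of probes for 1 transcript, and a difference is doxorubicin minus control on this log2 scale.

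Doxorubicin is an anthracycline, a drug that inserts into DNA, traps topoisomerase II on it and breaks both strands, which activates the transcription factor p53. In the kidney of Balb/c mice it is toxic to podocytes, the cells that form the outer layer of the glomerular filter, so that albumin leaks into the urine and the tubules and the tissue between them are injured in turn. The male mouse kidney differs from the female one in many transporters and enzymes of the proximal tubule, which androgens maintain.

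The arrays were those of kidney and of the labelled sex, with exceptions in 2 animals. Umod, the gene of uromodulin from the thick ascending limb, lay between 14.94 and 15.14 in the 10 males, and Slc34a1, the phosphate transporter of the proximal tubule, between 13.32 and 14.14. All males exceeded all females for the Y-linked genes Kdm5d, Uty and Eif2s3y. Doxorubicin male M30-4 was the lowest male for Kdm5d and Uty, at 4.50 and 5.45. Control male M12 was the lowest for Eif2s3y, at 3.69, and the highest male for Xist, at 6.21, where females lay between 12.29 and 12.87. The animal numbers split the males as well: 3 control and 2 doxorubicin animals have a number that starts with 30, the others have no such prefix, and the labels do not say what it stands for. Along the first principal component (49.5% of the variance) the males parted by this prefix, and along the second (20.1%) M30-4 lay by itself. Signal from the 5′ end of pyruvate carboxylase, a mouse transcript among the array controls, lay between 3.89 and 6.70 in the males without the prefix and between 2.35 and 2.38 in those with it. By how much 3′ signal exceeds 5′ signal is a sign of RNA length. For Gapdh this was 0.19 ± 0.22 in control and 0.24 ± 0.15 in doxorubicin males (SD, n = 5; p = 0.690 in a two-sided exact permutation test), and for Actb it was 1.61 ± 0.19 and 1.72 ± 0.15 (exact p = 0.349, with an adjusted p of 0.690 for both genes). The smallest p that 5 animals against 5 allow is 0.00794.

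In doxorubicin males, transcripts of 2 transporters that mark the male proximal tubule fell, while the p53 target Cdkn1a, Golm1, Cp, the thrombin receptor gene F2r, the interferon-induced Rsad2 and Klhdc8a rose. Of 22626 probe sets, 12 passed limma's test at an adjusted p under 0.03, which is 0.053% of those tested. They stand for 10 genes. Higher after doxorubicin were 7 probe sets, of Cp, Rsad2, Golm1, Klhdc8a, Cdkn1a and F2r, and lower were 5, of Slco1a1, Slc7a13, Nfya and Ugcg. In all 12 the control and doxorubicin animals did not overlap, which the choice of probe sets by a small p favours. The same direction within the animals with the prefix 30 and within those without it follows from this and adds no support. Of the 22626 probe sets, 1704 lay below an unadjusted p of 0.05, 860 of them higher and 844 lower, of which 156 and 114 did not overlap between the groups. Chance alone puts about 1 in 20 probe sets below this p. Many of these can thus be chance, and the counts are not read as further response. The tests measure the spread between single animals, whose small number limits precision. In RNA of whole kidney, fewer cells of a type and less RNA per cell cannot be told apart.

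Slco1a1, which encodes an organic anion transporter of the proximal tubule, had the largest difference among the called probe sets. Its probe set 1449844_at measured 11.14, 10.07, 11.25, 10.98 and 10.46 in control males M30-1, M13, M30-2, M30-5 and M12, and 8.78, 7.39, 7.58, 7.32 and 8.67 in doxorubicin males M30-3, M30-4, M7, M9 and M11, and this order of animals is kept for all genes. The highest injected animal lay below the lowest control animal. Slco1a1 fell by 2.83 on the log2 scale (standard error 0.27, 7.12-fold, adjusted p = 0.000239). This error draws on females, which were near background with SDs of 0.01 and 0.14, while the SDs of control and doxorubicin males were 0.50 and 0.72. From the 10 male arrays alone the standard error was 0.37 and limma's adjusted p was 0.135, so that the probe set was not called. The brighter probe set 1420379_at measured 12.17, 10.90, 11.92, 11.74 and 11.33 in control males and 9.89, 8.94, 9.17, 8.68 and 9.88 after doxorubicin, again with no overlap, and fell by 2.30 (standard error 0.25, adjusted p = 0.000699; 0.32 and 0.135 from the male arrays alone). The controls without the prefix, M13 and M12, were the lowest of their group in both probe sets, and the difference in 1449844_at was −3.04 within the prefix 30 and −2.41 without it. After doxorubicin the male kidney still held far more Slco1a1 than the female kidney, where 1449844_at averaged 2.28 in control and 2.35 in doxorubicin animals, below the array background of 2.84 that was read from Y-linked genes in females.

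Slc7a13, the gene of an amino acid transporter of the last segment of the proximal tubule, was also lower. Its called probe set 1431740_at measured 10.27, 11.07, 10.34, 10.31 and 11.34 in control males and 8.42, 9.78, 9.46, 9.46 and 9.05 after doxorubicin, with a gap between the lowest control and the highest injected animal. It fell by 1.43 (standard error 0.22, 2.69-fold, adjusted p = 0.0227). Here too the females were below background, with SDs of 0.02 in both groups, and from the male arrays alone the standard error was 0.31 and limma's adjusted p was 0.381. The brighter probe set 1449301_at did not overlap either, with 14.09 to 14.29 in controls and 12.52 to 14.02 after doxorubicin, but its difference of −0.81 did not pass the test (adjusted p = 0.723). Its standard error of 0.57 draws on control females with an SD of 1.74, while the SDs of control and doxorubicin males were 0.09 and 0.56. From the male arrays alone the standard error was 0.24 and limma's adjusted p was 0.606.

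Cdkn1a encodes p21, the inhibitor of cyclin-dependent kinases that p53 induces after DNA damage. Its probe set 1424638_at measured 4.48, 4.44, 4.48, 4.37 and 4.48 in control males and 5.04, 5.96, 5.35, 5.21 and 5.11 after doxorubicin. The control values were nearly constant and every injected animal lay above them, M30-4 by the most. Cdkn1a rose by 0.89 (standard error 0.13, 1.85-fold, adjusted p = 0.0154). This error draws on control females that were nearly constant too, at 4.47 with an SD of 0.006. From the 10 male arrays alone the standard error was 0.16 and limma's adjusted p was 0.261. Whether the constant control values are the lower limit of this probe set was not tested. The other probe set, 1421679_a_at, lay between 1.71 and 2.25 in 9 of the 10 males and at 6.19 in M30-4 alone.

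Golm1 and Cp, of the lists of tubule injury and of the acute phase, rose as well. Golm1, the gene of a Golgi membrane protein, measured 7.09, 7.18, 7.12, 7.07 and 7.47 in control males and 8.48, 8.82, 8.13, 8.31 and 7.89 after doxorubicin. The groups did not overlap, and the nearest animals were control M12 and doxorubicin M11. Golm1 rose by 1.14 (standard error 0.16, 2.20-fold, adjusted p = 0.0154), and by 1.56 within the prefix 30 against 0.78 without it. Cp encodes ceruloplasmin, the copper-carrying ferroxidase of plasma, which is an acute phase protein. Its probe set 1417494_a_at measured 7.75, 8.50, 7.54, 7.30 and 8.54 in control males and 9.27, 9.51, 9.71, 10.61 and 9.23 after doxorubicin. M9 was the highest of the injected animals, and the 2 controls without the prefix were the highest of theirs. Cp rose by 1.74 (standard error 0.29, 3.34-fold, adjusted p = 0.0276). Of its other 6 probe sets, 3 had no overlap and differences of 1.52, 1.84 and 2.17 without passing the test, and 3 dimmer ones differed by 0.12, 0.39 and 1.27.

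F2r encodes protease-activated receptor 1, through which thrombin signals to endothelial, mesangial and epithelial cells. Probe set 1437308_s_at measured 9.98, 9.65, 9.80, 9.59 and 9.72 in control males and 11.11, 10.45, 10.33, 10.62 and 10.67 after doxorubicin. Probe set 1450852_s_at measured 9.45, 9.30, 9.43, 9.33 and 9.50 in control males and 10.58, 10.19, 9.70, 10.02 and 10.13 after doxorubicin. Neither overlapped, and M30-3 was the highest animal in both. F2r rose by 0.89 (standard error 0.14, adjusted p = 0.0192) and by 0.72 (standard error 0.11, adjusted p = 0.0227). The suffix _s_at marks probe sets that may detect more than 1 transcript.

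Rsad2 encodes viperin, an antiviral protein that interferons induce through response elements in the promoter. Probe set 1421009_at measured 7.63, 7.63, 6.59, 6.67 and 6.97 in control males and 8.09, 8.96, 8.53, 8.61 and 8.83 after doxorubicin, so that the groups did not overlap. Rsad2 rose by 1.51 (standard error 0.25, 2.84-fold, adjusted p = 0.0276). The probe sets 1436058_at and 1421008_at did not overlap either and differed by 1.11 and 1.84 without passing the test. The promoter of Rsad2 from RefSeq (GRCm38.p6, chr12:26456403-26456702, minus strand, 250 bases before to 50 after the start) is shown because it holds the core of an interferon-stimulated response element, searched as GAAANNGAAA on both strands. The core lies from −120 to −111 on the opposite strand and is in capitals:
Rsad2 promoter: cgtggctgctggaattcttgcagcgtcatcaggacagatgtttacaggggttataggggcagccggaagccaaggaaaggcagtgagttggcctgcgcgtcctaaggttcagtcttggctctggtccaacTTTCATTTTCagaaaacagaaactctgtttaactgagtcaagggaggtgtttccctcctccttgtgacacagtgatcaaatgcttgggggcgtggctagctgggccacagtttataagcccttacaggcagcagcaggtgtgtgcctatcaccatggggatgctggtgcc
This core was found in at least 1 promoter of the same length in 1079 of 27025 RefSeq genes (3.99%), in 17 of 33 genes of the interferon-induced list with a promoter entry (51.5%), and, among the 9 called genes with an entry, in Rsad2 alone.

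Ugcg and Nfya were lower by small amounts that exceeded the spread between animals. Ugcg encodes glucosylceramide synthase, which turns ceramide into the first glycosphingolipid. Its probe set 1435133_at measured 6.24, 5.85, 6.08, 6.13 and 6.07 in control males and 5.71, 5.51, 5.51, 5.42 and 5.50 after doxorubicin. It fell by 0.55 (standard error 0.08, 1.46-fold, adjusted p = 0.0154), and 2 dimmer probe sets differed by −0.50 and −0.23 with overlap. Nfya encodes a subunit of NF-Y, the factor that binds CCAAT boxes. Its probe set 1452560_a_at measured 8.23, 8.71, 8.42, 8.28 and 8.41 in control males and 7.69, 7.92, 7.65, 7.58 and 7.66 after doxorubicin. Nfya fell by 0.71 (standard error 0.12, 1.63-fold, adjusted p = 0.0276). Its dimmer probe sets 1422082_a_at and 1427808_at differed by −0.71 and −0.009, both with overlap. The genes of the other subunits, Nfyb and Nfyc, differed by 0.15 and 0.11 with overlap, and Nfyb by −0.04 with the number prefix as a block. The letters CCAAT, searched on both strands, occur in 4 of the 9 called genes' promoters (44.4%; Cp, Golm1, Klhdc8a and Nfya) and in at least 1 promoter of 41.1% of all genes. Klhdc8a, the remaining called gene, measured 8.06, 7.95, 7.32, 7.95 and 7.64 in control males and 8.57, 9.27, 8.86, 8.95 and 8.67 after doxorubicin, and rose by 1.08 (standard error 0.17, adjusted p = 0.0241).

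**Figure D1:**
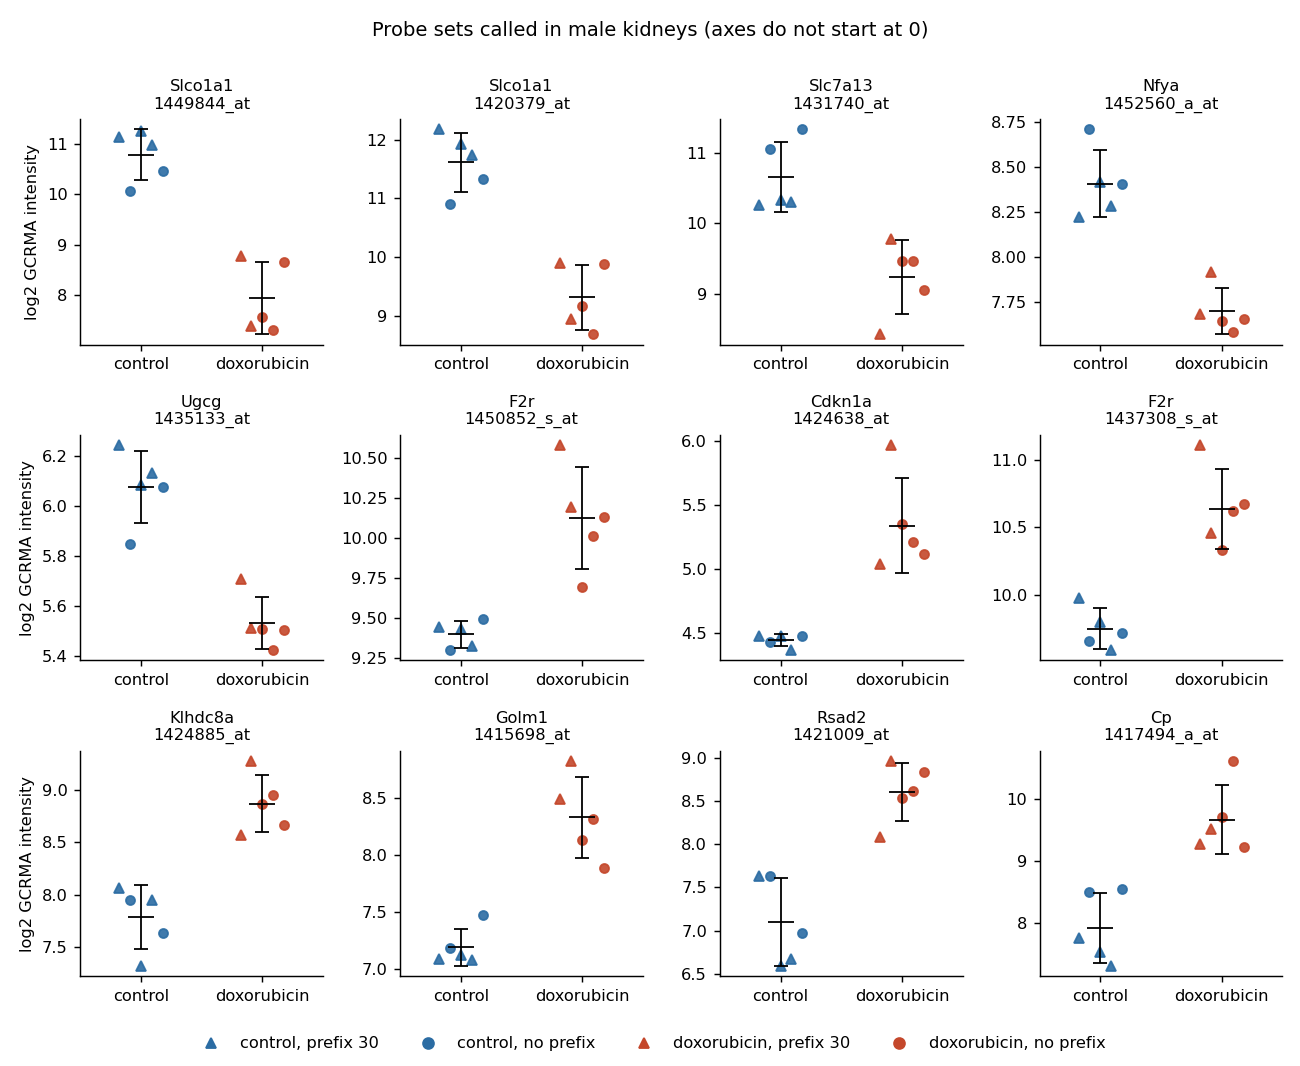
Log2 intensity (vertical axes, which do not start at 0) of the 12 called probe sets in control and doxorubicin males, 5 animals each; triangles are animals with the number prefix 30, circles those without, and bars the mean with the SD. In every panel the groups are separate, as for Slco1a1 1449844_at with 10.07 to 11.25 in controls and 7.32 to 8.78 after doxorubicin.

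The calls depended on which arrays entered the fit. With the 10 male arrays alone none of the 12 was called (limma, adjusted p from 0.135 to 0.381, with unadjusted p of at most 0.00136), and none was with the methods' t-test after adjustment, where both probe sets of Slco1a1 had an adjusted p of 0.271. SAM, the permutation method that the study used, was also run on these 10 arrays. At a 3% false discovery rate it called 54 probe sets, 11 of the 12 among them. Both probe sets of Slco1a1 were called in each of 20 fits that left out 1 of the 20 arrays, the adjusted p never exceeding 0.00440. Golm1 was called in 15 of these fits, Cdkn1a in 13, Ugcg in 12, F2r in 9 and 7, Slc7a13 in 8, Klhdc8a in 7, Rsad2 in 6, Nfya in 5 and Cp in 4. No probe set other than those of Slco1a1 was called without M30-5, M9, F4 or F10-4. There were 3 calls without M12, 4 without M30-2, 5 without F1, F10-2, F3, M7 or M11, 20 without M30-3 and 21 without FNo5. Without M30-4, the animal that stood apart, 13 were called, 8 of them among the 12. Over the 20 fits the difference ranged from −3.04 to −2.68 for Slco1a1 1449844_at, from 1.02 to 1.25 for Golm1 and from 0.73 to 0.96 for Cdkn1a. With the number prefix as a block, 20 probe sets (0.0884%) were called, 11 of the 12 among them, and Klhdc8a was not (adjusted p = 0.0320). The 9 further calls were of Zmat3, Cp, Angptl7, Cbr3, Tmem19, Mcfd2, St6gal1, Cerk and Anxa3.

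Genes were then described by lists, with each gene given by its brightest probe set, which for Slc7a13 and Rsad2 is not the called one. As a background, 559 of 12393 genes (4.51%) were higher and 490 (3.95%) lower at an unadjusted p under 0.05, 124 (1%) were higher and 86 (0.694%) lower with no overlap between the groups, and the median difference of all genes was −0.01. The counts for each list use these same rules and are descriptions. Members that were not called are given as values.

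Among 26 measured genes that androgens maintain in the mouse kidney, 25 had a lower mean after doxorubicin and the median difference was −0.53. Of these, 12 lay below an unadjusted p of 0.05, all lower, and 6 had no overlap. Acsm3, a mitochondrial acyl-CoA synthetase, measured 13.61, 12.89, 13.33, 13.41 and 12.98 in control males and 12.63, 11.62, 11.42, 10.72 and 11.91 after doxorubicin, a difference of −1.59 (standard error 0.37, adjusted p = 0.136). Cyp4a12a, the testosterone-dependent fatty acid hydroxylase, measured 13.10, 12.73, 12.94, 13.21 and 12.87 in control males and 10.95, 11.26, 11.73, 11.35 and 12.39 after doxorubicin, a difference of −1.44 (adjusted p = 0.212). Both had no overlap, as did Pzp, a protease inhibitor gene, with −1.02 (adjusted p = 0.0386), and Ugt2b38, a glucuronosyltransferase gene, with −0.83. The classical androgen targets Gusb and Odc1 differed by −1.13 and −0.33 with overlap, and Kap, the kidney androgen-regulated protein, by −0.12 from a mean of 16.12. Cyp2d9, with 0.40, was the 1 gene of the list with a higher mean. Set against the control mean, the median of the list was −0.21 in M30-3, −0.26 in M30-4, −0.75 in M7, −0.95 in M9 and −0.47 in M11, while controls lay between −0.21 and 0.17. Within each number prefix the doxorubicin animals lay below the controls, and across prefixes M30-3 was level with control M13. Without M30-4 the counts were 0 higher and 15 lower, beside 3.71% of all genes higher and 5.24% lower in that fit, and the median was −0.65.

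Transporters of the proximal tubule differed in both directions. Of 40 measured, 6 were lower and 3 higher at an unadjusted p under 0.05, the median difference was −0.03, and Slco1a1 and Slc7a13 were the 2 with no overlap. Slco1a6, a transporter related to Slco1a1, differed by −0.77, the phosphate transporter Slc17a3 by −0.28 and the lactate transporter Slc5a8 by −0.40, each with overlap. The glucose transporter Slc5a2, the water channel Aqp1 and the organic cation transporter Slc22a2 differed by −0.09, 0.03 and 0.01. Of 32 genes of the thick limb, distal tubule and collecting duct, 4 were higher and 0 lower at an unadjusted p under 0.05, with a median of 0.09.

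Of 30 measured targets of p53, 23 had a higher mean in males after doxorubicin, with a median difference of 0.13. By animal, the list's median against the control mean was 0.34 in M30-3 and between 0.08 and 0.14 in the other injected males, and control M30-1, at 0.21, lay above these 4. Of these, 9 lay below an unadjusted p of 0.05, all higher, 3 had no overlap, and Cdkn1a was called. Zmat3, a p53-induced RNA-binding protein, measured 7.54, 7.26, 7.39, 7.50 and 6.99 in control males and 8.04, 8.83, 7.995, 8.005 and 8.39 after doxorubicin, with no overlap. Its difference of 0.92 (standard error 0.16, adjusted p = 0.0386) missed the threshold, which it passed with the prefix as a block (adjusted p = 0.0144). Phlda3, an inhibitor of Akt, measured 5.35, 3.93, 4.67, 3.84 and 3.89 in control males and 5.65, 7.43, 7.78, 5.41 and 5.61 after doxorubicin, a difference of 2.04 (standard error 0.53, adjusted p = 0.215). Aen, a nuclease of apoptosis, differed by 0.94, the kinase gene Plk2 by 1.18 and cyclin G1, Ccng1, by 0.54, all with overlap. The known targets Mdm2, Bbc3 and Gadd45a differed by 0.07, 0.06 and 0.00. Without M30-4 the counts were 8 higher and 0 lower.

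Genes of anthracycline targets and handling differed in both directions. Of 22 measured, 11 had a higher and 11 a lower mean in the injected males, with a median of −0.01. At an unadjusted p under 0.05, 3 were higher and 1, Akr1a1, was lower. The 3 were Cbr3 and Cbr1, of carbonyl reductases that turn doxorubicin into its alcohol, and Abcb1b, of a pump that exports the drug. None was called in the fit without a block. The carbonyl reductase gene Cbr3 measured 2.61, 4.16, 2.55, 2.53 and 3.49 in control males and 3.15, 5.10, 5.56, 6.47 and 6.66 after doxorubicin. Its difference of 2.32 (standard error 0.52, adjusted p = 0.125) came with overlap, and the values were lower in the animals with the prefix 30 in both groups. It was called with the prefix as a block (adjusted p = 0.0235). Cbr1 differed by 1.38 and Abcb1b, a multidrug exporter, by 1.21, both with overlap, and by 1.13 and 1.10 with the prefix as a block. For Cbr1, controls M13 and M12, at 12.30 and 12.29, lay above doxorubicin M30-3 and M30-4, at 11.58 and 11.84. Akr1a1 differed by −0.13 with no overlap from a control mean of 15.78. The topoisomerase genes Top2a, Top2b and Top1 differed by 0.60, −0.12 and −0.33. Of 31 genes of oxidative stress and metallothioneins, 6 were higher and 1 lower, with a median of 0.06.

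Markers of tubule injury were higher in the doxorubicin group mainly through 2 animals. Of 26 measured markers, 21 had a higher mean, 6 were higher and 0 lower at an unadjusted p under 0.05, 4 had no overlap, and the median difference was 0.47. Set against the control mean, the list's median was 0.59 in M30-3 and 1.35 in M30-4, but 0.12, 0.01 and −0.01 in M7, M9 and M11, with controls between −0.10 and 0.20. Without M30-4 the median of the list was 0.21, with 5 higher. Lcn2, the lipocalin NGAL released by injured tubules, measured 4.45, 4.45, 2.38, 2.75 and 4.46 in control males and 7.73, 10.37, 5.74, 7.59 and 5.16 after doxorubicin. The groups did not overlap, yet the difference of 3.62 (standard error 1.13, 12.3-fold, adjusted p = 0.379) did not pass the test, and it was 5.86 within the prefix 30 and 1.71 without it. Lgals3, the gene of galectin-3, measured 11.33, 11.03, 11.19, 10.82 and 10.85 in control males and 11.47, 12.37, 11.69, 11.55 and 11.36 after doxorubicin, a difference of 0.65. Havcr1, the kidney injury molecule KIM-1, differed by 0.75 and clusterin, Clu, by 0.39, with overlap.

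Of 28 genes of the acute phase and the interleukin-6 family, 4 were higher and 1 lower at an unadjusted p under 0.05, 3 had no overlap, and the median was −0.01. Beside Cp these were Osmr, the oncostatin M receptor, with 5.95, 5.74, 5.62, 5.60 and 6.02 in control males and 7.57, 7.38, 6.88, 7.41 and 7.33 after doxorubicin (difference 1.53, standard error 0.37, adjusted p = 0.161), Stat3 with a difference of 0.44 and Lrg1 with 1.18. The error of Osmr draws on females with SDs of 0.49 and 1.05, while the male SDs were 0.19 and 0.26. From the 10 male arrays alone its standard error was 0.14 and limma's adjusted p was 0.0447, lower than for any of the 12 called probe sets in that fit. Liver-type members such as Hp and Saa1 differed by −0.14 and 0.37. Of 26 genes of thrombin and coagulation, 7 were higher and 0 lower, with a median of 0.07. Among them were F2r, thrombomodulin, Thbd, with 0.69 (1.35 within the prefix 30 and −0.0046 without it), the protein C receptor, Procr, with 0.70, protein S, Pros1, with 0.53, and the fibrinogen genes Fga with 0.72 and Fgg with 1.22, while Fgb differed by −0.01.

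Extracellular matrix genes showed the widest split by number prefix. Of 37 measured, 33 had a higher mean, 6 were higher and 0 lower at an unadjusted p under 0.05, 2 had no overlap, and the median difference was 0.44. That median was 1.26 within the prefix 30 and 0.09 among the animals without it. By animal, the list's median against the control mean was 0.99 in M30-3, 1.42 in M30-4, 0.05 in M7, −0.14 in M9 and −0.16 in M11, with controls between −0.19 and 0.36. Without M30-4 the median was 0.13, with 4 higher. Col18a1, a basement membrane collagen, measured 9.55, 9.65, 9.52, 9.34 and 9.49 in control males and 10.43, 10.85, 9.84, 10.04 and 9.74 after doxorubicin, a difference of 0.67 (standard error 0.16, adjusted p = 0.161). Biglycan, Bgn, differed by 0.77 without overlap. The chains of basement membrane collagen IV, Col4a1 and Col4a2, differed by 0.75 and 0.61, and Tgfb1 by 0.53. Fibrillar collagens were less even, with 0.77 for Col1a1 and 0.10 for Col3a1, and Acta2, a marker of myofibroblasts, differed by 0.27. With 2 doxorubicin animals of the prefix 30, 1 of them M30-4, what the prefix and the animals each contribute cannot be told apart.

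**Figure D2:**
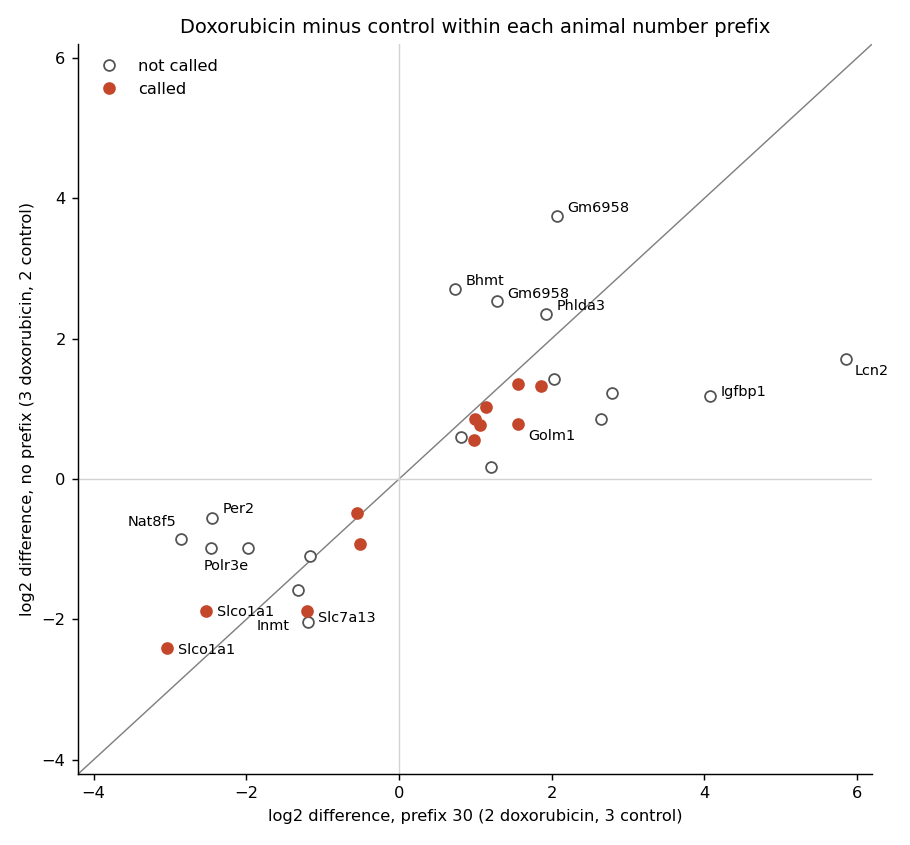
Log2 difference, doxorubicin minus control, within the animals with the number prefix 30 (horizontal axis, 2 doxorubicin and 3 control) and within those without it (vertical axis, 3 and 2), for the called probe sets (filled) and the largest differences without overlap that were not called (open); the line marks equal differences. Slco1a1 1449844_at differs by −3.04 and −2.41 and Klhdc8a by 1.14 and 1.03, while Lcn2 differs by 5.86 and 1.71.

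Interferon-induced and antigen presentation genes had their highest medians in M30-3, M30-4 and control M30-1. Of 43 interferon-induced genes, 32 had a higher mean, 7 were higher and 0 lower at an unadjusted p under 0.05, 1 had no overlap (Rsad2), and the median was 0.24. The list's median was 0.67 in M30-3, 0.53 in M30-4, 0.22 in M7, −0.11 in M9 and −0.01 in M11, but also 0.80 in control M30-1, against −0.18 to −0.13 in the other 4 controls. Lgals3bp differed by 1.02, the transcription factor Irf9 by 0.80 and Isg20 by 1.41, while Ifit1, Irf7 and Mx1 differed by 0.17, 0.08 and −0.02. Of 16 genes of antigen presentation, 15 had a higher mean, 1 was higher at an unadjusted p under 0.05 (B2m, with 0.27), and the median was 0.23. Here too control M30-1 was at 0.76, beside 0.66 in M30-3 and 1.27 in M30-4, and without M30-4 the median was 0.04. Of 37 leukocyte genes, 4 were higher and 0 lower, with a median of 0.21 that was −0.0023 without M30-4, and by animal the list's median was 0.602 in M30-4, 0.105 in M30-3 and 0.112 in control M30-1. The monocyte receptor Cd14 measured 6.30, 6.09, 6.05, 5.14 and 6.41 in control males and 7.60, 9.04, 6.84, 6.90 and 6.93 after doxorubicin, a difference of 1.46 without overlap (adjusted p = 0.456). The lysozyme gene Lyz2 differed by 1.35, also without overlap. Of 27 genes of NF-kB and chemokines, 5 were higher and 1 lower, with a median of 0.15, among them Tnfaip2 with 1.21 and the adhesion molecule Icam1 with 1.24, both without overlap, and Cxcl12 with −0.37. Limma's adjusted p of Tnfaip2 was 0.0822 with all arrays and 0.0861 with the 10 male arrays alone, where the lowest of the 12 called probe sets was 0.135. Its SDs were 0.38 and 0.63 in control and doxorubicin females and 0.10 and 0.30 in control and doxorubicin males. Of 14 complement genes, 2 were higher (C1qa and C1qb, with 1.28 and 1.05) and 0 lower, and none was without M30-4. On the log2 scale the summed intensity of the leukocyte list lay between 12.10 and 12.76 in controls and between 12.26 and 13.83 after doxorubicin, with 9 of 37 markers at the array background in all males. The part of infiltrating cells in these differences was not tested.

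**Figure D3:**
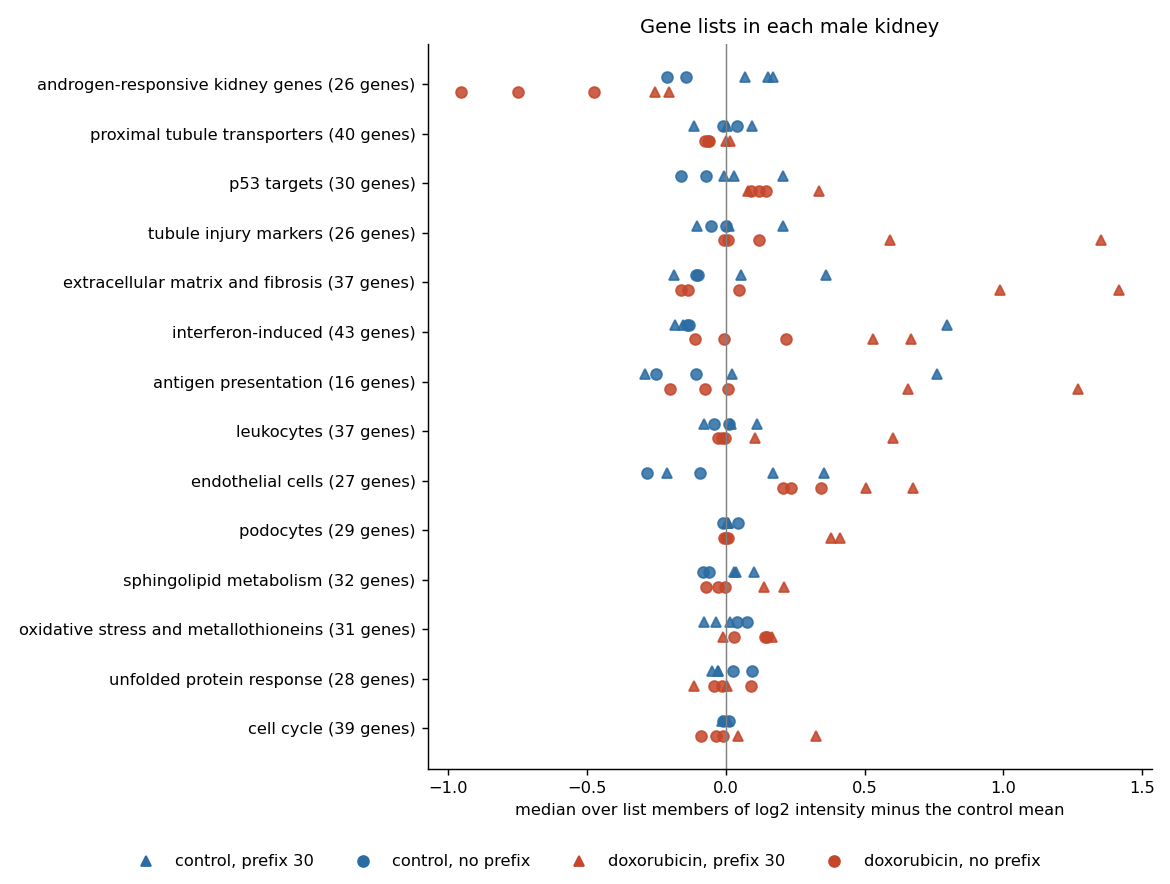
Median over the members of 14 gene lists of the log2 intensity minus the control mean (horizontal axis) in each of the 10 male kidneys; triangles are animals with the number prefix 30, circles those without. Extracellular matrix and tubule injury lists reach 1.42 and 1.35 in M30-4 and stay near 0 in M7, M9 and M11, and the androgen-responsive list is lowest in M9, at −0.95.

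Most endothelial genes had a higher mean in the doxorubicin males. Of 27 measured, 26 had a higher mean, 10 were higher and 0 lower at an unadjusted p under 0.05, 3 had no overlap, and the median difference was 0.42, with 0.52 within the prefix 30 and 0.53 without it. By animal, the list's median against the control mean was 0.50, 0.67, 0.34, 0.21 and 0.23 in M30-3, M30-4, M7, M9 and M11, and control M30-1, at 0.35, lay above the last 3, with the other controls between −0.29 and 0.17. Without M30-4 it was 0.28, with 9 higher. Flt1, the gene of the receptor VEGFR1, measured 7.65, 7.11, 7.40, 6.99 and 6.85 in control males and 7.76, 7.97, 8.14, 8.12 and 8.13 after doxorubicin, a difference of 0.83 (standard error 0.18, adjusted p = 0.124). Rhoj, a small GTPase of blood vessels, measured 6.00, 6.34, 5.79, 4.94 and 6.25 in control males and 7.07, 7.52, 7.19, 7.30 and 7.33 after doxorubicin, a difference of 1.42 (adjusted p = 0.396). These 2 and Cldn5, a tight junction gene, had no overlap. Kdr, the gene of the main VEGF receptor, differed by 0.50, the phosphatase Ptprb by 0.51, the angiopoietin receptor Tek by 0.29, and Cdh5 and Pecam1 by 0.14 and 0.22.

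Podocytes are the known target of the drug and a small share of the cells of a whole kidney. Of 29 measured podocyte genes, 7 were higher and 0 lower at an unadjusted p under 0.05, 2 had no overlap, and the median difference was 0.14. Cdkn1c, the cell cycle inhibitor p57 of mature podocytes, measured 6.87, 6.64, 6.87, 6.81 and 6.53 in control males and 8.42, 9.21, 7.74, 7.44 and 7.17 after doxorubicin, a difference of 1.25 (standard error 0.28, adjusted p = 0.125). Itga3, the integrin chain that binds podocytes to the basement membrane, measured 6.36, 6.13, 5.80, 4.90 and 6.16 in control males and 7.15, 7.75, 6.81, 7.00 and 6.59 after doxorubicin, a difference of 1.19 (adjusted p = 0.125). Synaptopodin, Synpo, differed by 0.91, podocalyxin, Podxl, by 0.64 and Ptpro by 1.00, with overlap. The slit diaphragm gene Nphs1 differed by 0.38, and Wt1 and Cd2ap by 0.06 and −0.02. By animal, the list's median was 0.41 and 0.38 in M30-3 and M30-4 and between −0.01 and 0.01 in M7, M9 and M11. Without M30-4, 6 were higher and 0 lower.

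The response of males was then compared with that of females. In the same fit the difference of the responses passed an adjusted p of 0.05 for 1 probe set (0.00442%), that of Slco1a1 1449844_at, with −2.90 (standard error 0.39, adjusted p = 0.0217), an error that also draws on the small spread of the females. It passed in 9 of the 20 fits that left out an array. The highest adjusted p, 0.0765, came without M30-5. In females this probe set lay below background on average in both groups, so that a fall could not have been measured there. For the other called genes the female means lay above the array background, apart from Slc7a13 at 2.27 in control females. Cdkn1a was nearly constant in control females, with an SD of 0.006. None of the 12 probe sets differed between doxorubicin and control females at an unadjusted p under 0.05. Other probe sets of Rsad2 and Cp did. Rsad2 1436058_at, its brightest, was 0.97 higher in doxorubicin females (unadjusted p in limma 0.000389, adjusted p = 0.133) and 1.11 higher in doxorubicin males, and Cp 1448734_at, 1417495_x_at and 1455393_at were 0.70, 0.80 and 1.18 higher in females (unadjusted p in limma 0.0211, 0.0284 and 0.0172). Golm1 averaged 7.19 in control males, 8.33 in doxorubicin males, 8.94 in control females and 9.07 in doxorubicin females. F2r (1437308_s_at) averaged 9.75, 10.64, 10.51 and 10.40 in these groups, Klhdc8a 7.79, 8.86, 8.80 and 8.84, and Cdkn1a 4.45, 5.34, 4.47 and 4.57. Nfya averaged 8.41, 7.70, 7.20 and 7.36, and Ugcg 6.08, 5.53, 5.44 and 5.51. Both the response of males and the difference between the sexes rest on the same 5 control males. With the number prefix as a block, 67 probe sets (0.296%) passed, 57 with the more positive difference in males and 10 with the more negative one, among them 6 of the 12, of Slco1a1, F2r, Ugcg and Nfya. This block also held the prefix 10, which only females carry, and F30-6 was the only female with the prefix 30. Without a prefix, 5′ pyruvate carboxylase signal lay between 3.89 and 6.70 in males. In females without one it was 5.80 in FNo5 and 2.34 to 2.37 in F1, F3, F4 and F5.

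Over all genes, the difference of the responses lay below an unadjusted p of 0.05 with the higher value in males for 413 (3.33%) and with the lower value in males for 438 (3.53%). For endothelial genes these counts were 12 and 0 of 27, and the median response was 0.42 in males and −0.16 in females, where 6 were lower and 0 higher at an unadjusted p under 0.05, beside 2.14% of all genes lower and 2.44% higher in females. Flt1 differed by 0.83 in males and −0.60 in females, and Kdr by 0.50 and −0.84. Both passed an adjusted p of 0.05 for the difference of the responses with the prefix as a block (adjusted p = 0.0476 and 0.0379) and not without it. Rhoj differed by 1.42 and −1.51. For podocyte genes the counts were 7 and 0 of 29, for extracellular matrix 6 and 0 of 37, and for p53 targets 4 and 0 of 30. The median response of p53 targets was 0.13 in both sexes. Androgen-responsive genes had 0 and 10 of 26, with a median response of −0.53 in males and 0.0049 in females. Of these genes 25 had a lower mean in control females than in control males, with a median level of 7.18 against 12.89, and 5 were at or below background in control females, where a fall could not have been measured. Among the other 21 the counts were 0 and 6, with medians of −0.51 and 0.0064. The 3′ minus 5′ signal of Gapdh ranged from −0.02 to 0.54 in the 10 males, from −0.10 to 1.64 in control females and from 0.29 to 0.91 in doxorubicin females. That of Actb ranged from 1.42 to 1.89 in males, from 1.11 to 3.23 in control females and from 2.28 to 3.11 in doxorubicin females, all of which lay above all males. The part of these signals in the differences between the sexes was not tested for the lists.

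**Figure D4:**
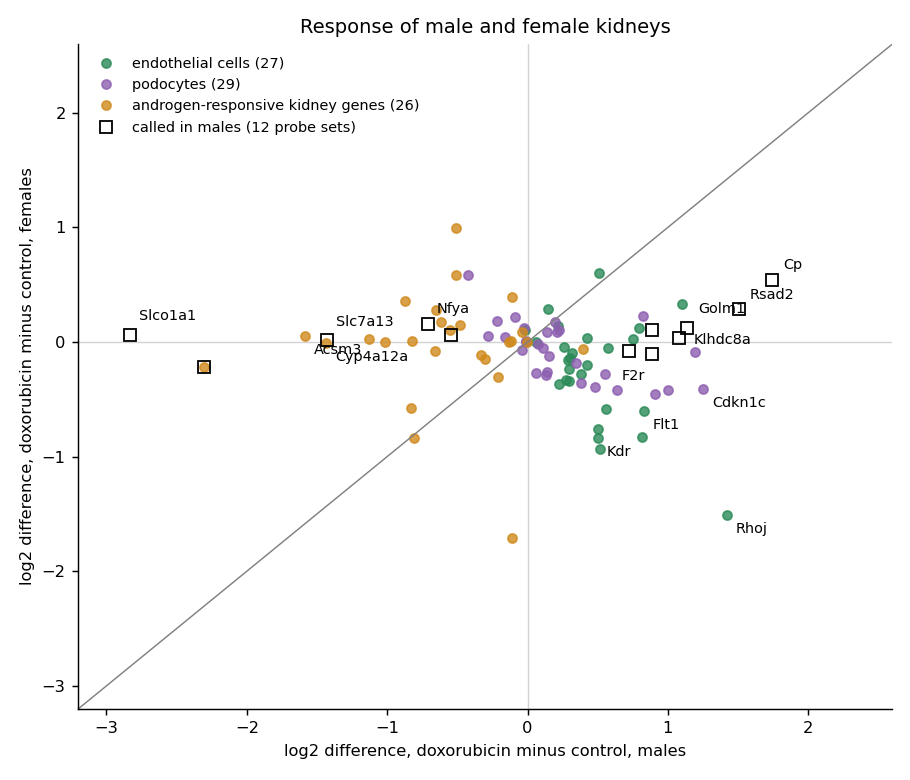
Log2 difference, doxorubicin minus control, in males (horizontal axis) and females (vertical axis) for 3 gene lists (filled points, 1 per gene) and the 12 probe sets called in males (open squares); the diagonal marks equal responses. Endothelial genes lie mostly to the right of and below 0, as Rhoj with 1.42 and −1.51, and Slco1a1 1449844_at lies at −2.83 and 0.07.

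The remaining lists covered metabolism, stress and cell division. Of 32 genes of sphingolipid metabolism, 2 were higher and 4 lower at an unadjusted p under 0.05, with a median of 0.04. Cerk, which phosphorylates ceramide, measured 4.97, 5.02, 5.17, 5.57 and 4.81 in control males and 6.44, 7.12, 5.83, 6.03 and 5.72 after doxorubicin, a difference of 1.12 without overlap, which was called with the prefix as a block (adjusted p = 0.0234). The 3 NF-Y genes had 0 higher and 1 lower, Nfya, and a median of 0.11. Of 28 genes of the unfolded protein response, 1 was higher and 4 lower, with a median of 0.01; Edem1 with −0.30 and Herpud1 with −0.45 had no overlap. The counts were 2 higher and 0 lower of 27 genes of fatty acid oxidation (median 0.11), 0 and 1 of 18 of cholesterol synthesis (median −0.12), 1 and 1 of 39 of the cell cycle (median 0.02), and 5 and 0 of 17 immediate early genes (median 0.26, and −0.01 without M30-4). The mitotic gene Ube2c lay at 6.15 and 7.69 in M30-3 and M30-4 and between 2.14 and 2.77 in the other 8 males.

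Large differences outside these groups did not pass the test. Igfbp1, the gene of a carrier of insulin-like growth factors, measured 5.74, 8.78, 4.83, 8.72 and 9.37 in control males and 10.50, 10.52, 10.67, 9.47 and 10.60 after doxorubicin, a difference of 2.87 without overlap (standard error 0.73, adjusted p = 0.195). Here the control animals were spread widely and the injected animals were not. Gm6958 differed by 3.05 and 2.08 in its 2 probe sets (adjusted p = 0.0582 and 0.0416), and Bhmt, a methyltransferase of methionine synthesis, by 1.63. On the lower side, Inmt, a methyltransferase of amines, measured 14.47, 13.85, 14.66, 14.46 and 13.55 in control males and 13.35, 13.31, 12.23, 10.29 and 12.45 after doxorubicin, a difference of −1.87 (standard error 0.48, adjusted p = 0.195). Nat8f5, an acetyltransferase gene, differed by −1.76, Polr3e, a subunit of RNA polymerase III, by −1.69 and Angptl7 by −1.28, all without overlap. The clock gene Per2 differed by −1.57, with −2.45 within the prefix 30 and −0.56 without it.

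Markers of other tissues varied between animals. The 4 measured red blood cell genes summed to between 8.92 and 10.50 in controls and between 9.66 and 12.88 after doxorubicin on the log2 scale, with the 1 probe set of Hba-a1 alone at the array background; 1 was higher, Alas2, with 1.76. Probe sets that stand for several globin genes were not used. The 10 adipose genes summed to between 14.79 and 15.23 in controls and between 14.00 and 15.09 after doxorubicin; all had a lower mean, 2 were lower at an unadjusted p under 0.05 (Cidea and Adipoq), the median difference was −0.55, and Lep and Retn were at the background in all males. Adiponectin, Adipoq, lay at 9.27, 8.65, 6.10, 1.81 and 8.11 in control males and at 1.84, 1.90, 1.83, 6.02 and 1.85 after doxorubicin. Adrenal genes, 8 of 11, and muscle genes, 10 of 10, were at the background in all males, with 1 higher and 1 lower of 11 and 1 higher and 0 lower of 10 and medians of −0.01 and −0.02. What these tissues contribute to the differences of other genes was not tested.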

How the data were processed

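Male kidneys were compared by the groups of the sample titles. The authors normalized the arrays with GCRMA (version not given in the sources used here), which corrects background, equalizes arrays and summarizes probes, and deposited linear intensities. These intensities were converted to log2 without a pseudocount, and no value was missing. Of 22690 probe sets, 64 array controls were set aside. Of the 22626 tested, 20380 stand for 1 gene (12393 genes, 20351 probe sets named through the Entrez ID), 691 for several and 1555 for none named here. One limma model with 4 groups (limma 3.58.1, R 4.3.3; 16 residual degrees of freedom) was fitted over 20 arrays, with Benjamini-Hochberg adjustment over all probe sets. Array background was the 95th percentile of Y-linked probe sets in females. Named genes are the 4 markers Slco1a1, Cp, Cdkn1a and Golm1, called probe sets, the 10 largest differences without overlap in each direction, and the members with the smallest p of 28 lists. Other list members given as values were picked for their known role after their values were seen. The comparison and the lists were chosen with earlier results of these data known. The model was tested on simulated data, in which the noise of a probe set had the same SD in all 4 groups. How the model behaves where the spread differs between the sexes was therefore not tested. The alternatives were SAM with 100 permutations, the methods' Student test, other sample sets, variance priors, weights, normalizations, filters, covariates and leaving out each array; the block without M30-4, the list values without M30-4 and the split of androgen-responsive genes by their level in females were added after seeing the data. Figures were drawn in Python 3.11.15 with matplotlib 3.10.9.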

Additional observations from a re-analysis of the deposited data

Results flagged for a closer look

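In 17 of 258 groups of 5 animals tested, 1 animal lay far from the others, where chance gives about 1 in 20. M30-4 was that animal among doxorubicin males for Cdkn1a 1421679_a_at (6.19 against 1.71 to 2.25), Slc4a1 (11.48 against 9.29 to 9.74), Hexa (11.12 against 10.30 to 10.46), Akr1a1 (15.71 against 15.63 to 15.65), Mvk (7.16 against 6.60 to 6.68), Kdm5d (4.50 against 6.61 to 7.38) and Cp 1417497_at (2.47 against 3.51 to 3.69). M9 was it for Igfbp1 (9.47 against 10.50 to 10.67), Cp 1417495_x_at (10.16 against 8.74 to 9.11) and Adipoq (6.02 against 1.83 to 1.90). Among control males M30-1 stood apart for Birc3 (6.57 against 5.60 to 5.83) and Ccr2 (4.56 against 3.30 to 3.37), and M12 for Golm1 (7.47 against 7.07 to 7.18) and Eif2s3y (3.69 against 9.15 to 10.03). M13 stood apart for Mcm5 (4.58 against 2.64 to 3.18), M30-2 for Gm6958 1435628_x_at (5.24 against 5.92 to 6.07) and M30-5 for Cd14 (5.14 against 6.05 to 6.41). The response of Slco1a1 1449844_at differed between the sexes by −2.90 in limma's test of the difference.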

How the results depend on the processing

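Of 22626 probe sets, 12 were called in males and 1 for the difference of the responses. In males the count was 286 with the methods' t-test at an unadjusted p under 0.01, 54 with SAM on the 10 male arrays at a 3% false discovery rate (46 higher, 8 lower, 11 of the 12 among them), 26 at an adjusted p under 0.05, 20 with the number prefix as a block, 113 with array weights and 22 among the upper 60% of probe sets by mean. It was 0 with the methods' t-test after Benjamini-Hochberg adjustment (1181 at an unadjusted p under 0.05), 0 with limma on the 10 male arrays alone (1347) and 0 on these with the block (2375). It was 2 to 21 when 1 array was left out. The other settings gave 8 to 13: a trended, robust variance prior, quantile normalization, median centring, values below background set to it, Gapdh signal as covariate, and the block without M30-4. For the difference of the responses the count was 67 with the block, 88 with the block and without M30-4, 213 with array weights, 16 with Gapdh signal as covariate, 3 among the upper 60% of probe sets, 3 with values below background set to it, and 2 with the variance prior, with quantile normalization and with median centring. It was 0 to 5 when 1 array was left out, and where it was 0, limma gave 1124 to 1713 at an unadjusted p under 0.05. The block over the 20 arrays left the difference of the responses itself unchanged and moved only its test. For Slco1a1 1449844_at it stayed at −2.90, with an adjusted p in limma of 0.0217 without and 0.00517 with the block. The cause of these changes was not tested further, beyond the fewer arrays or probe sets of some settings. None of the 12 called probe sets changed sign under these settings. Within a prefix none could, because their groups did not overlap. Of 137 named probe sets, 1 changed sign with the prefix as a block (Nfyb, −0.04), 5 within the prefix 30 and 3 within the animals without it. Median centring moved the median difference of all probe sets from −0.01 to −0.06. No paired analysis was possible because the groups share no replicate numbers, and the prefix of the animal number was used as the block.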
